A study of Mus musculus with 6 samples.

Results

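The transcripts described here are those of 9 genes, chosen by symbol: the 2'-5' oligoadenylate synthetase (Oas) family members Oas1c, Oas1d, Oas1e, Oas1h and Oasl1 and the RNA-sensing genes Ddx58, Ifih1, Mavs and Eif2ak2. All 9 symbols had a row among the 23235 genes of the deposited table. RNA came from germinal vesicle (GV) oocytes at the fully-grown stage, large oocytes held in meiotic prophase before ovulation, of C57BL/6 mice. The oocytes carried a knock-out of Rtcb, which encodes the RNA ligase that joins tRNA exons, or were wild type (WT), with 3 libraries per genotype and 10 oocytes per library, collected 44 to 48 h after PMSG, a gonadotropin that stimulates follicle growth. All sample titles carry 6W, which is not spelled out. How the knock-out was made and whether the libraries came from separate animals is not stated. The p-values therefore rest on library-to-library spread alone, and that spread may be technical. Because 10 oocytes were pooled, a lower level in every oocyte and a loss from some of them cannot be told apart.

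OAS proteins bind double-stranded RNA and, when active, make 2'-5' linked oligoadenylate, a second messenger of the antiviral response. DDX58 (RIG-I) and IFIH1 (MDA5) are cytosolic helicases that recognise foreign RNA and signal through MAVS on mitochondria to the type I interferon genes, and EIF2AK2 (PKR) phosphorylates the translation factor eIF2 when it binds double-stranded RNA. In most cells several of these genes are kept low and are raised by interferon. Mouse has many Oas1 genes in one cluster, several of which encode proteins without synthetase activity, and OAS1D is such a protein, known from mouse oocytes and early embryos.

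Values are FPKM, fragments scaled to transcript length and library size, which the authors scaled to ERCC spike-in RNA added to the lysis buffer. Rtcb, listed under its older symbol D10Wsu52e, averaged 2.98 ± 0.733 FPKM in Rtcb KO oocytes and 127 ± 12.9 FPKM in WT oocytes (SD, n = 3 each). The summed FPKM per library ran from 943926 to 999507 in Rtcb KO and from 1267730 to 1347010 in WT. Every column of a genotype was multiplied by one common number, and the KO number is 0.667 of the WT number, or −0.58 on the log2 scale, so a deposited fold change includes this offset. Of 12029 tested genes 54.0% were lower and 9.29% higher in Rtcb KO by limma at an adjusted p under 0.05, and the median log2 fold change of all tested genes was −0.47. With both factors removed 18.0% were lower and 25.7% higher, and the median was 0.043. All 10 oocyte markers were well above 0 in all 6 libraries, and 6 of them were lower and 1, Figla, higher in Rtcb KO as deposited. With the factors removed 3 of the 10 were higher and 2 lower, beside 25.7% and 18.0% of all tested genes. The summed level of 13 granulosa and cumulus cell markers was 33.9 to 46.4 FPKM in Rtcb KO and 46.5 to 55.7 FPKM in WT, with Amh, Fshr and Foxl2 under 1 FPKM in every library. Most of that sum was Cyp19a1, the aromatase gene, at 17.5 to 22.2 FPKM in Rtcb KO and 35.6 to 39.8 FPKM in WT, and Inha, at 6.08 to 17.8 FPKM in KO and 3.50 to 8.36 FPKM in WT. The sums include the genotype factors. Of 5 tested markers 0 were higher and 1 lower as deposited, beside 9.29% and 54.0% of all tested genes. With the factors removed 2 were higher and 0 lower, beside 25.7% and 18.0%. KO 3 was the highest library for 5 of the 13 markers, and WT 2 and WT 3 for 3 each. Read depth per library is unknown, because these FPKM do not keep it.

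The 4 Oas1 genes among the members dominated the group, and the RNA sensors stood far below them. Oas1e, Oas1d, Oas1h and Oas1c were at 718 to 2731 FPKM in every library, while Mavs, Ddx58 and Oasl1 were between 4.43 and 29.6 FPKM. Eif2ak2 and Ifih1 stayed under 1 FPKM throughout, and Ifih1 was listed at 0 in 2 WT libraries. By mean level Oas1e ranked 104 of 23235 genes in Rtcb KO and 48 in WT, Oas1d 90 in KO and 61 in WT, Oas1h 158 in KO and 115 in WT, and Oas1c 236 in KO and 124 in WT. As deposited, all 7 members that passed the filter, an average of 1 FPKM or more, were lower in Rtcb KO oocytes. This count stands beside the 54.0% of all tested genes called lower, and it falls to 3 members with the genotype factors removed, beside 18.0%.

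**Figure D1:**
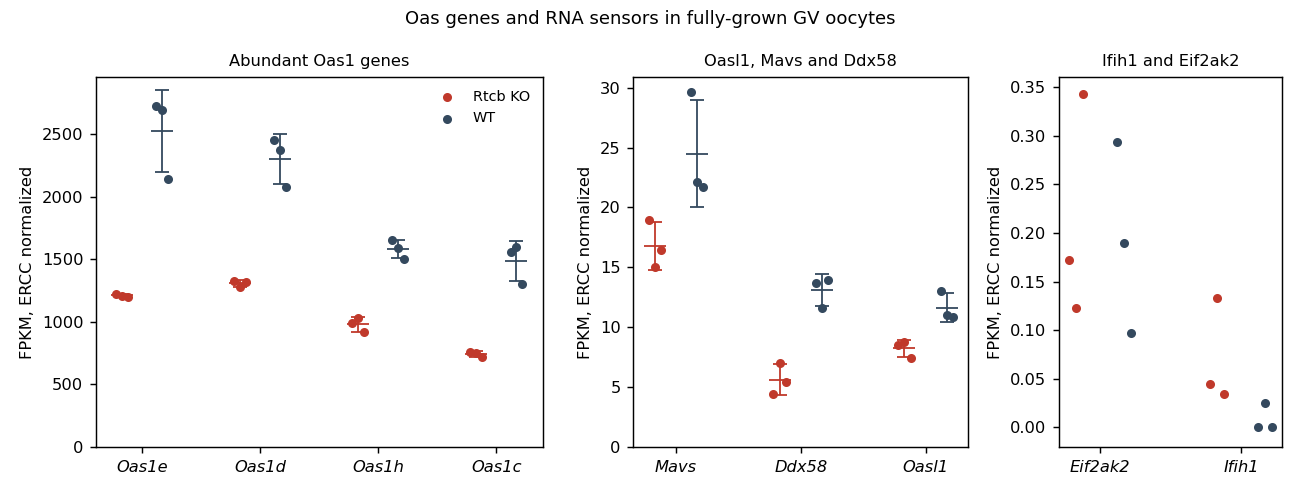
FPKM of the 9 genes in the 3 Rtcb KO (red) and 3 WT (dark blue) libraries, each point a library; the vertical axes are linear FPKM, and bars in the left and middle panels are mean and SD (n = 3). Oas1e lies between 1202 and 1225 FPKM in Rtcb KO and between 2145 and 2731 FPKM in WT, whereas Eif2ak2 and Ifih1, drawn without bars, lie under 1 FPKM in all libraries.

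Oas1e had 1225, 1211 and 1202 FPKM in the Rtcb KO libraries, against 2731, 2695 and 2145 FPKM in the WT libraries. The KO libraries lay close together and all below WT, in which the third library was the lowest. The mean was 1213 ± 11.3 FPKM in Rtcb KO and 2524 ± 328 FPKM in WT, a log2 fold change of −1.05 on the log2(FPKM + 1) scale (SE 0.110, limma adjusted p = 0.000217). Oas1d, the member best known from mouse oocytes, had 1328, 1279 and 1317 FPKM in Rtcb KO, against 2458, 2372 and 2077 FPKM in WT. The groups did not overlap, and the log2 fold change was −0.81 (SE 0.0924, limma adjusted p = 0.000268). Oas1d averaged 1308 ± 26.0 FPKM in Rtcb KO and 2302 ± 199.5 FPKM in WT.

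Oas1h had 992, 1031 and 916 FPKM in Rtcb KO, against 1652, 1588 and 1505 FPKM in WT. It was the least lowered of the 4 abundant genes, with a mean of 980 ± 58.4 FPKM in Rtcb KO and 1581 ± 73.5 FPKM in WT and a log2 fold change of −0.69 (SE 0.0866, limma adjusted p = 0.000369). Oas1c had 760.1, 750.2 and 718 FPKM in Rtcb KO, against 1559, 1598 and 1303 FPKM in WT. The highest KO library was thus below the lowest WT library, and the log2 fold change was −0.99 (SE 0.1001, limma adjusted p = 0.000194). Groups that do not overlap were common in these data, with 57.5% of tested genes having all 3 KO values below all 3 WT values.

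With the genotype factors removed, Oas1e (log2 fold change −0.46, limma adjusted p = 0.0124) and Oas1c (−0.41, adjusted p = 0.0136) were still lower in Rtcb KO. Oas1d was at −0.23 (adjusted p = 0.0816) and Oas1h at −0.11 (adjusted p = 0.349) on that scale, and neither passed the threshold. When all libraries were brought to equal total FPKM, all 4 were lower, beside 25.8% of tested genes, at adjusted p from 0.00512 (Oas1c) to 0.0406 (Oas1h). With median-ratio rescaling Oas1h was not called (adjusted p = 0.150) and the other 3 were, beside 21.7% of tested genes. Against all tested genes, 12.8% had a lower log2 fold change than Oas1e as deposited, 15.5% than Oas1c, 26.0% than Oas1d and 34.3% than Oas1h.

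**Figure D2:**
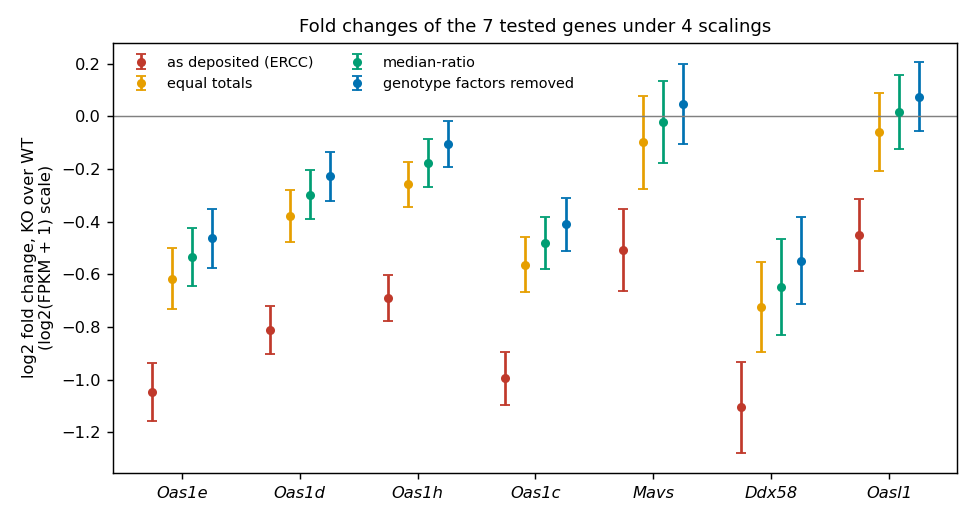
Log2 fold change of Rtcb KO over WT with its standard error for the 7 tested genes, as deposited and under 3 other scalings. Oas1e, Oas1c and Ddx58 lie below 0 under all 4, while Mavs and Oasl1 lie near 0 once the deposited scaling is replaced.

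The proportions among the Oas1 genes do not depend on a common factor of a library, so they were compared within libraries, in a comparison chosen after the values were seen. The ratio of Oas1e to Oas1d was 0.922, 0.947 and 0.913 in the Rtcb KO libraries, against 1.11, 1.14 and 1.03 in the WT libraries. Oas1d was therefore the most abundant member in all 3 KO libraries and Oas1e in all 3 WT libraries. The ratio of Oas1h to Oas1c was 1.31, 1.37 and 1.28 in Rtcb KO, against 1.06, 0.993 and 1.15 in WT. Of the 6 pairs among the 4 genes, 4 had ratios that did not overlap between the genotypes (exact permutation test on log2 ratios, two-sided, p = 0.1 each, adjusted p = 0.15 over 6 pairs). A design of 3 libraries against 3 cannot give a p below 0.1, so none of the 6 could pass the threshold. Among single genes at equal totals 57.0% did not overlap between the genotypes. A ratio is another measure, and no such share was computed over gene pairs. The 6 ratios come from 4 genes and so depend on one another. The ratio of Oas1e to Oas1c, the 2 genes that were lowered most, overlapped at 1.63 ± 0.0354 in Rtcb KO and 1.69 ± 0.0535 in WT (exact p = 0.2). The ratio of Oas1d to Oas1h overlapped too, at 1.34 ± 0.0988 in Rtcb KO and 1.45 ± 0.0640 in WT (exact p = 0.2).

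As shares of the summed FPKM of the 5 Oas members, Oas1e held 28.5 ± 0.319% in Rtcb KO and 31.8 ± 1.198% in WT, and Oas1c 17.5 ± 0.188% in KO and 18.8 ± 0.474% in WT. Oas1d held 30.8 ± 0.889% in Rtcb KO and 29.1 ± 0.403% in WT, and Oas1h 23.0 ± 1.04% in KO and 20.1 ± 1.14% in WT. The KO and WT values of each share did not overlap, as was so for 57.0% of single genes at equal totals, which is another measure. The shares are parts of one sum, so a fall of some forces a rise of others. Together the 5 genes made up 0.457%, 0.428% and 0.429% of the total FPKM of the Rtcb KO libraries, against 0.663%, 0.627% and 0.523% in WT. In this comparison, which is free of the genotype factors, the KO libraries were again all below WT, as were 33.5% of tested genes with equal totals.

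**Figure D3:**
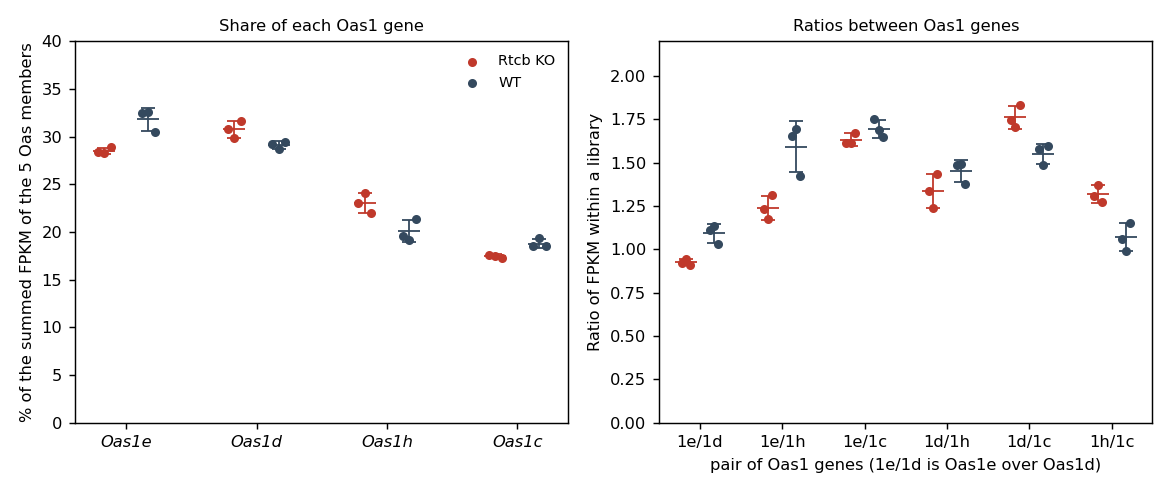
Left, share of each abundant Oas1 gene in the summed FPKM of the 5 Oas members, in percent; right, ratios of FPKM between pairs of Oas1 genes; red points are the 3 Rtcb KO and dark blue points the 3 WT libraries, with mean and SD (n = 3). Oas1e over Oas1d lies between 0.913 and 0.947 in Rtcb KO and between 1.03 and 1.14 in WT.

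In Rtcb KO the levels of the 4 genes followed the order Oas1d, Oas1e, Oas1h, Oas1c, with no overlap between neighbours. In WT the order by mean was Oas1e, Oas1d, Oas1h, Oas1c. There the ranges of Oas1e and Oas1d overlapped across libraries, although Oas1e was above Oas1d within each library. The ranges of Oas1h and Oas1c overlapped as well, and within libraries Oas1h was above Oas1c in WT 1 and WT 3 and just below it in WT 2. On chromosome 5 the Oas1 genes lie side by side with Oas2 and Oas3, in the order Oas2, Oas3, Oas1e, Oas1c, Oas1b, Oas1f, Oas1h, Oas1g, Oas1a, Oas1d in the RefSeq annotation of GRCm38.p6. Abundant and near-silent genes are interspersed along it. Oasl1 lies elsewhere on chromosome 5, Ifih1 and Mavs on chromosome 2, Ddx58 on chromosome 4 and Eif2ak2 on chromosome 17. Oas1a, whose product has synthetase activity in mouse, had 0.890, 0.541 and 0.4198 FPKM in Rtcb KO, against 0.598, 0.540 and 0.556 FPKM in WT, although Oas1d, the next protein-coding gene, was between 1279 and 2458 FPKM. Oas2 was at 0.151, 0.111 and 0.193 FPKM in Rtcb KO. In WT it was at 0.0710 FPKM in WT 2 and listed at 0 in WT 1 and WT 3.

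Of the 7 Oas genes outside the group, 4 passed the filter, with 0 higher and 2 lower in Rtcb KO as deposited, beside 9.29% higher and 54.0% lower of all tested genes. Oas1f had 62.1, 79.3 and 66.5 FPKM in Rtcb KO, against 98.9, 119 and 120 FPKM in WT (log2 fold change −0.69, limma adjusted p = 0.00187). Oas1b, which carries a truncating stop in C57BL/6 mice, had 15.8, 21.3 and 14.9 FPKM in Rtcb KO, against 27.7, 27.9 and 28.3 FPKM in WT (log2 fold change −0.68, adjusted p = 0.00432). Both were at −0.12 with the factors removed and were not called there. Oas3, a larger synthetase, averaged 5.85 ± 0.298 FPKM in Rtcb KO and 5.45 ± 0.105 FPKM in WT and was not called (adjusted p = 0.575), while it was higher in KO with the factors removed (log2 fold change 0.53, adjusted p = 0.00924). Oas1g averaged 1.64 ± 0.131 FPKM in Rtcb KO and 1.47 ± 0.2095 FPKM in WT (adjusted p = 0.574). With the factors removed it was higher in KO (log2 fold change 0.37, adjusted p = 0.0399). Reads of Oas1a and Oas1g cannot be fully told apart, since 40.9% of the 100-base windows of the Oas1a transcript occur in Oas1g. None of the 100-base windows of the longest coding transcripts of Oas1d, Oas1e, Oas1h and Oasl1 in GENCODE vM21 occurred in a transcript of another gene, and 4.47% of those of Oas1c did.

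**Figure D4:**
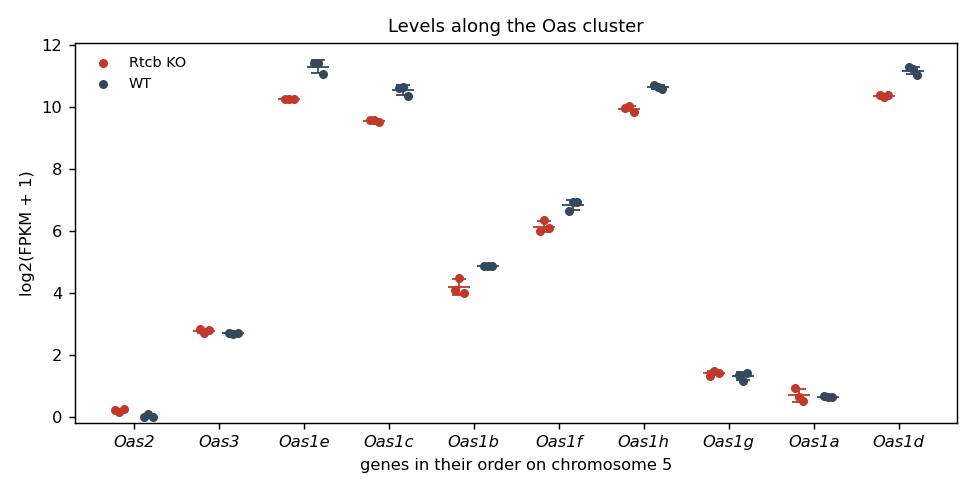
Level on the log2(FPKM + 1) scale of the 10 Oas genes in their order along the cluster on chromosome 5, for 3 Rtcb KO (red) and 3 WT (dark blue) libraries, with mean and SD except for Oas2. Oas1e, Oas1c, Oas1h and Oas1d stand above the rest in both genotypes, while Oas1a and Oas2 stay under 1 FPKM.

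Promoters were read to set the oocyte-abundant genes beside those known mainly as interferon targets. RefSeq windows of GRCm38.p6, 250 bases before and 50 after the start, were found for 7 of the 9 genes, all but Oas1d and Oas1e. They were searched on both strands for GAAA, any 2 bases and GAAA in a row, the core of the interferon-stimulated response element, for TATAAA, the TATA box, and for CANNTG, the E-box, which is bound by basic helix-loop-helix factors, among them FIGLA of oocytes. The first motif occurred in Oas1c, Ddx58, Ifih1 and Eif2ak2, against 3.44% of 32851 windows of all genes. The E-box occurred in 6 of the 7, all but Oas1c, against 72.3% of all windows, and TATAAA only in Ddx58 among the 7, against 13.6%. The sequences below show the 250 bases before the start for both abundant genes that have a window, and 30 bases around the match to the interferon element core for the sensors. Capitals mark that core on either strand, and in Oas1h the E-boxes. Oas1c has 2 overlapping matches on the reverse strand, starting at positions −114 and −108.
Oas1c, chr5:120812515-120812764, minus strand: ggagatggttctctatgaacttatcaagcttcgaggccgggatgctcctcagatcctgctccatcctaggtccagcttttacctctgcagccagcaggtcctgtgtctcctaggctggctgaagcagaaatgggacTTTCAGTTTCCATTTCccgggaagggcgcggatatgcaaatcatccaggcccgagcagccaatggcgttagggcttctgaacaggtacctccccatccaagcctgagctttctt
Oas1h, chr5:120861172-120861421, plus strand: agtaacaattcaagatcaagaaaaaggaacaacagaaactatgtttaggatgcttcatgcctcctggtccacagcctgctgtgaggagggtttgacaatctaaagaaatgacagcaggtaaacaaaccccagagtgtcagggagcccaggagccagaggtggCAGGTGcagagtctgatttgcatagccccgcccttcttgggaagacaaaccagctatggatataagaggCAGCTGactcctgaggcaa
Ddx58, chr4:40239804-40239833, minus strand: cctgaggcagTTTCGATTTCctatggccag
Ifih1, chr2:62646206-62646235, minus strand: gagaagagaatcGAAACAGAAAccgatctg
Eif2ak2, chr17:78882535-78882564, minus strand: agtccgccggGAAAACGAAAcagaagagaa

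The interferon element core is thus present both in Oas1c, at 743 ± 21.9 FPKM in Rtcb KO and 1487 ± 160.0 FPKM in WT, and in Ifih1 and Eif2ak2, which were under 1 FPKM in all libraries. Windows were found for 8 of the 12 Oas genes. The core also lay in Oas1a, Oas1g and Oas3, at means of 0.617, 1.64 and 5.85 FPKM in Rtcb KO and 0.565, 1.47 and 5.45 FPKM in WT. It was absent from Oas1h, Oasl1, Oas1f and Oasl2. A match says only that these letters lie in the window.

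Oasl1, whose product is OAS-like and carries ubiquitin-like repeats, was at 8.55, 8.76 and 7.41 FPKM in Rtcb KO, against 13.0, 11.03 and 10.9 FPKM in WT. The groups did not overlap, and the log2 fold change was −0.45 (SE 0.136, limma adjusted p = 0.0202), close to the median of all tested genes. It no longer passed when KO 3 (adjusted p = 0.0765) or WT 1 (adjusted p = 0.0631) was left out. With the factors removed the sign turned (log2 fold change 0.075, adjusted p = 0.664), as it did with median-ratio rescaling (0.016, adjusted p = 0.932).

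Ddx58, which encodes the sensor RIG-I, was lower in Rtcb KO by a fold close to those of Oas1e and Oas1c. It had 4.43, 6.99 and 5.41 FPKM in Rtcb KO, against 13.7, 11.6 and 14.0 FPKM in WT. The highest KO value, that of KO 2, was well below the lowest WT value. The mean was 5.61 ± 1.29 FPKM in Rtcb KO and 13.1 ± 1.32 FPKM in WT, with a log2 fold change of −1.11 (SE 0.174, limma adjusted p = 0.000975). Ddx58 was lower under all 4 scalings, at −0.55 with the factors removed (adjusted p = 0.0297). Of all tested genes 10.3% had a lower log2 fold change, as deposited and with the factors removed alike. In WT Ddx58 and Oasl1 overlapped in level, whereas in Rtcb KO every Ddx58 value was below every Oasl1 value.

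Mavs, the adaptor of RIG-I and MDA5, was the most abundant of the sensing genes. It had 19.0, 15 and 16.4 FPKM in Rtcb KO, against 29.6, 22.1 and 21.7 FPKM in WT, where WT 1 stood above the other libraries. The log2 fold change was −0.51 (SE 0.156, limma adjusted p = 0.0211), and the gene no longer passed when KO 2 (adjusted p = 0.0585), KO 3 (adjusted p = 0.0616) or WT 1 (adjusted p = 0.0584) was left out. As a share of the library total the groups overlapped, and with the factors removed the log2 fold change was 0.046 (adjusted p = 0.827).

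Ifih1, the gene of MDA5, had 0.0445, 0.133 and 0.0342 FPKM in Rtcb KO, against 0.0251 FPKM in WT 2, and was listed at 0 in WT 1 and WT 3. All KO values were above the WT values, but each was close to 0. Eif2ak2, the gene of PKR, had 0.172, 0.123 and 0.343 FPKM in Rtcb KO, against 0.293, 0.189 and 0.0973 FPKM in WT, and the groups overlapped. Neither gene passed the filter, so neither was among the tested genes. In a fit without the filter the limma adjusted p was 0.202 for Ifih1 and 0.867 for Eif2ak2. No member was at 0 in every library.

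Among genes that act around 2'-5' oligoadenylate, Abce1, known as a ribosome recycling factor, was the 1 called gene of 3 tested in its list, beside 9.29% of all tested genes called higher, at 12.7 ± 2.94 FPKM in Rtcb KO and 7.59 ± 3.19 FPKM in WT (log2 fold change 0.72, limma adjusted p = 0.0471). Its groups overlapped, and its call was lost when KO 1, KO 3, WT 2 or WT 3 was left out (adjusted p = 0.0796 to 0.145). The call was also lost without the filter (limma adjusted p = 0.0958) and without the intensity trend. Without KO 2, 2 of the 3 tested genes were higher, beside 11.3% of all tested genes. With the factors removed all 3 tested genes of the list were higher in KO, beside 25.7% of all tested genes, the others being Pde12, a 2'-5' phosphodiesterase, and Cnp, a cyclic nucleotide phosphodiesterase.

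Of 13 other RNA sensors and cofactors 7 were tested, and 0 were higher and 4 lower in Rtcb KO, beside 9.29% and 54.0% of all tested genes, at a list median of −0.49 beside −0.47 for all tested genes. Ddx3x, a helicase that also takes part in MAVS signalling, was at 110 ± 5.93 FPKM in Rtcb KO and 220 ± 36.5 FPKM in WT (log2 fold change −0.98, adjusted p = 0.000387). Dhx33 was lower as well (−0.54, adjusted p = 0.0155). The others called lower, named after their values were seen, were Ddx60 and the endosomal receptor gene Tlr3. Ddx60, an interferon-inducible helicase, was at 0.473 ± 0.205 FPKM in Rtcb KO and 3.69 ± 0.261 FPKM in WT. It passed the filter only through WT, and was called lower without the filter too (limma adjusted p = 0.000663). The call of Tlr3 was lost without KO 3 (adjusted p = 0.0712) or WT 2 (adjusted p = 0.0771). With the factors removed 2 genes of the list were higher, Dhx15 and Dhx36, and 2 lower, Ddx3x and Ddx60, beside 25.7% and 18.0% of all tested genes.

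Genes of proteins that bind, edit or cut double-stranded RNA were all tested, and 1 of 14 was higher and 12 were lower, beside 9.29% and 54.0% of all tested genes. The list median was −0.54 beside −0.47 for all tested genes. Supv3l1, the mitochondrial RNA helicase, was at 29.9 ± 1.08 FPKM in Rtcb KO and 64.8 ± 4.53 FPKM in WT (log2 fold change −1.09, adjusted p = 0.000164), and Stau1, which binds double-stranded regions of mRNA, at 164 ± 8.81 FPKM in KO and 334 ± 32.7 FPKM in WT (−1.02, adjusted p = 0.000179). Dhx9, a helicase named after its values were seen, was the 1 called higher (3.397 ± 0.874 FPKM in KO and 1.97 ± 0.362 FPKM in WT, adjusted p = 0.0352). Its call was lost without KO 1, KO 3, WT 1 or WT 3 (adjusted p = 0.0782 to 0.122), with the replicate block (0.0646) and without the filter (0.0638). With the factors removed 2 rose and 3 fell, beside 25.7% and 18.0% of all tested genes.

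Of 13 tested signalling genes below the sensors 3 were higher, 4 lower and 6 not called, beside 9.29% higher and 54.0% lower of all tested genes. The list median was −0.27 beside −0.47 for all tested genes. Fadd, a death domain adaptor, was at 13.8 ± 0.901 FPKM in Rtcb KO and 26.0 ± 1.29 FPKM in WT (log2 fold change −0.87, adjusted p = 0.000399), and Rela, an NF-kappa-B subunit, at 36.3 ± 4.45 FPKM in KO and 56.6 ± 7.74 FPKM in WT (−0.63, adjusted p = 0.00454). The others that fell were Tank, lost without KO 3, WT 1 or WT 2 (adjusted p = 0.0568 to 0.0737), and Ripk1. The call of Ripk1 was lost when any library other than WT 2 was left out (adjusted p = 0.0557 to 0.137) and without the filter (0.0640). The 3 that rose, named after their values were seen, were Irf3, the transcription factor activated below MAVS (33.0 ± 7.15 FPKM in KO and 22.1 ± 2.69 FPKM in WT, log2 fold change 0.54, adjusted p = 0.0285), Ikbkg and Traf2. Traf2 was at 3.49 ± 1.30 FPKM in KO and 0.501 ± 0.186 FPKM in WT. It passed the filter only through KO, and was called higher without the filter too (limma adjusted p = 0.00253). The call of Irf3 was lost without KO 1, KO 3, WT 2 or WT 3 (adjusted p = 0.0512 to 0.103) and without the filter (0.0545). After removal of the factors 5 rose, those 3 with Tbk1 and Ikbkb, and 0 fell, beside 25.7% and 18.0% of all tested genes.

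Type I interferon genes were at or near 0 in both genotypes. Ifna1, Ifna2, Ifna4 and Ifne were listed at 0 in all 6 libraries, and Ifnb1 was above 0 in KO 3 (0.156 FPKM) and WT 1 (0.178 FPKM). Of 7 tested genes of interferon signalling, 0 were higher and 3 lower, beside 9.29% and 54.0% of all tested genes. Jak1, a kinase bound to the interferon receptor, was at 19.95 ± 0.606 FPKM in Rtcb KO and 57.0 ± 6.16 FPKM in WT (log2 fold change −1.46, adjusted p = 0.000162), and Tyk2, another such kinase, fell too. Among 34 interferon-stimulated genes 15 were tested, with 0 higher and 6 lower, beside the same 9.29% and 54.0%. Parp12 was at 255 ± 5.63 FPKM in Rtcb KO and 549.5 ± 72.8 FPKM in WT (−1.10, adjusted p = 0.000178) and Cmpk2 at 25.2 ± 1.26 FPKM in KO and 49.1 ± 3.64 FPKM in WT (−0.94, adjusted p = 0.000244). The list median was −0.35 beside −0.47 for all tested genes, and with the factors removed 5 rose and 3 fell, beside 25.7% and 18.0% of all tested genes. Without KO 2, 2 of 14 tested genes of this list were higher and 6 lower, beside 0 and 6 with it. Of all tested genes 11.3% were higher and 51.3% lower without KO 2.

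KO 2 stood apart in this list. It had 31 of the 34 interferon-stimulated genes above 0, against 21 and 23 in the remaining KO libraries and 23 to 24 in WT. KO 2 was the highest library for 12 of them, and WT 1 for 10. All genes above 0 were not counted by library. Values of at least 1 FPKM over all genes numbered 11579 in KO 2, 11711 in KO 1, 11718 in KO 3 and 11862 to 12022 in WT. Ccl5, a chemokine named after its values were seen, had 15.5 FPKM in KO 2, whereas the other 5 libraries listed it at 0. It passed the filter through KO 2 alone and was not called (limma adjusted p = 0.251). Rsad2 (0.820 FPKM), Ifit2, Ifit3, Gbp2 and 2 of the leukocyte markers, Lyz1 and Cd3e, were also above 0 in KO 2 alone. Of 12 leukocyte markers KO 2 had 11 above 0, against 4 in each other KO library and 4 to 7 in WT, and their summed level was 16.1 FPKM in KO 2, 4.19 and 4.99 FPKM in the other KO libraries and 9.06 to 12.003 FPKM in WT. Lyz2, a myeloid gene, was at 5.46 FPKM in KO 2 and at 0 in the other KO libraries, against 0, 0.152 and 0.157 FPKM in WT. Ptprc, the pan-leukocyte gene, was at 0.0803 FPKM in KO 2, at 0.0265 FPKM in WT 3 and at 0 elsewhere, and Cd79a was at 0 throughout. Laptm5 and Cd68, which made up most of the sum in WT, were not highest in KO 2: Laptm5 had 2.77 FPKM there and 4.87 to 6.24 FPKM in WT, and Cd68 had 3.02 FPKM there and 2.88 to 4.69 FPKM in WT. The part of leukocytes in the values of KO 2 was not tested. Leaving out KO 2, Ddx58 had a log2 fold change of −1.25 and the 4 Oas1 genes lay between −1.05 and −0.73.

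**Figure D5:**
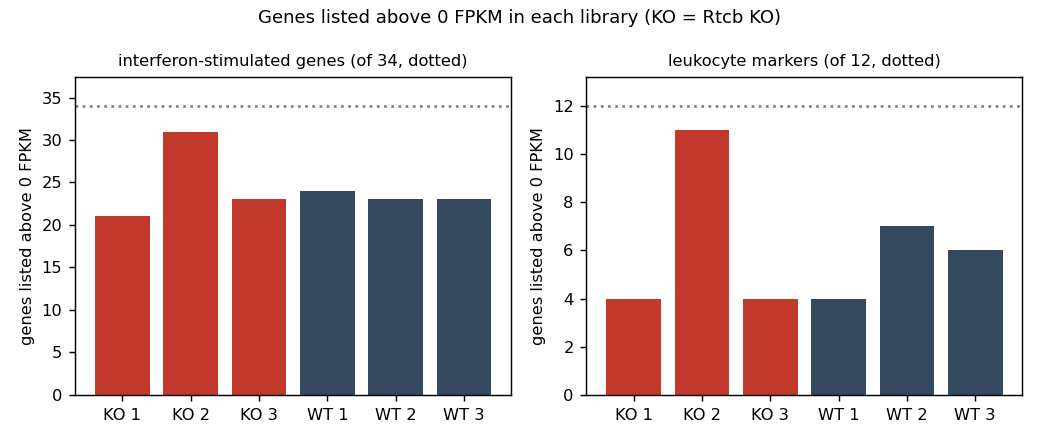
Number of interferon-stimulated genes (left, of 34) and leukocyte markers (right, of 12) listed above 0 FPKM in each of the 3 Rtcb KO (red) and 3 WT (dark blue) libraries. KO 2 has 31 and 11 of them, more than any other library. The number of all genes above 0 in each library was not counted.

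Beside Eif2ak2, 3 other kinases phosphorylate eIF2, and these were expressed. Eif2ak1, the heme-regulated kinase, was at 81.5 ± 4.97 FPKM in Rtcb KO and 188 ± 13.1 FPKM in WT (log2 fold change −1.19, limma adjusted p = 0.000162). Eif2ak4, the kinase GCN2, was at 7.89 ± 0.896 FPKM in Rtcb KO and 25.2 ± 2.87 FPKM in WT (−1.56, adjusted p = 0.000164). Both were also lower with the factors removed. Eif2ak3, named after its values were seen, was higher (0.80, adjusted p = 0.0178), and its call was lost without KO 1, KO 3 or WT 2 (adjusted p = 0.0604 to 0.0651). Of 6 tested genes of this list 1 was higher and 4 lower, beside 9.29% and 54.0% of all tested genes, the other two being Eif2s1, lost without KO 3 (adjusted p = 0.0551), and Ppp1r15a. On the scale with the factors removed 2 were higher and 2 lower, beside 25.7% and 18.0% of all tested genes. Eif2s1 (0.24) and Ppp1r15a (0.18) were not called there.

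The genes with a pattern most like that of Oas1e, the member with the highest mean, were Uros, Ipcef1 and Il10rb. Likeness was the root mean square difference of the 6 log2(FPKM + 1) values, each less its own gene's mean, over 7262 genes averaging 10 FPKM or more. It was 0.033 for Uros (6.86 ± 0.0781 FPKM in Rtcb KO and 15.016 ± 1.62 FPKM in WT), 0.041 for Ipcef1 and 0.046 for Il10rb. In all 3, as in Oas1e, WT 3 was the lowest WT library and above every KO library. The genes were chosen for nearness over these same 6 values, so this shared order follows from the choice.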

How the data were processed

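Polyadenylated RNA was measured in 3 Rtcb KO and 3 WT libraries. Per the labels' protocols, the 10 oocytes of a library were lysed in a buffer that held ERCC spike-ins, Smart-seq2 with oligo-dT primers gave full-length cDNA, and sequencing was paired-end. Per the submitters' processing notes, the build was mm9 and the tools included TopHat2 (2.1.1) and Cufflinks (2.2.1); no annotation is named. The deposited table holds FPKM by gene symbol, which the authors scaled to the spike-ins. Dividing the WT values by 2 and the KO values by 4/3 returns numbers of 6 significant digits for 100% of values of at least 1 (197 fractions tried, tolerance 0.01 of the last digit; at most 76.8% for the next), so each genotype carries one factor, up to powers of 10.

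The 12029 genes averaging 1 FPKM or more were tested on the log2(FPKM + 1) scale by limma (3.58.1, R 4.3.3, with an intensity trend), two-sided, KO over WT, with Benjamini-Hochberg adjusted p under 0.05 over all tested genes. The step was tested on simulated data in which few genes changed, evenly in both directions. A shift of most genes in 1 direction, as in these data, was not simulated. The log2 scale with the added 1 understates changes of low genes. A gene could pass the filter through the values of 1 genotype alone. The members and lists were chosen with earlier results of these data known, and lists are described by counts and medians without a set test. Named were all members, Rtcb, per list the 2 called genes of smallest p with a group mean of 5 FPKM or more, other Oas genes averaging 1 FPKM or more, and the 3 genes nearest in pattern; the cluster neighbours Oas1a and Oas2, the interferon genes and further list genes were named after their values were seen. Alternatives were pseudocounts of 0.1 and 5, no filter, a filter of 10 FPKM, 3 scalings, no trend, a replicate block and each library left out. The ratios between Oas1 genes were chosen after their values were seen. Promoters are from RefSeq (GRCm38.p6); transcripts are from GENCODE vM21, used for sequence only. Python 3.11.15, scipy 1.17.1 and matplotlib 3.10.9 were used. Some genes of the lists are counted but not reported here by name.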

Additional observations from a re-analysis of the deposited data

How the results depend on the processing

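Of 223 recomputed values under other settings, 191 kept their direction and side of the threshold, or for counts and shares moved little. Oas1c and Oas1e passed under every setting, and Ddx58 under each in which it was tested, all but the filter of 10 FPKM, which also left out Oasl1. With the genotype factors removed the log2 fold change of Oas1d was −0.23, of Oas1h −0.11, of Oasl1 0.075 and of Mavs 0.046, none of which passed, and the sign turned for Oasl1 and Mavs. With equal totals Oasl1 was at −0.059 and Mavs at −0.098, and with median-ratio rescaling Oas1h was at −0.18, Oasl1 at 0.016 and Mavs at −0.020. Leaving out single libraries gave −0.49 to −0.37 for Oasl1 and −0.60 to −0.37 for Mavs, with largest adjusted p of 0.0765 and 0.0616 by limma. Of all genes, 1118 were higher and 6501 lower as deposited, against 2283 and 3107 with equal totals, 2746 and 2606 with median-ratio rescaling and 3097 and 2161 with the factors removed; 490 were higher when the filter was 10 FPKM on average. Over the 8 pathway lists 6 genes were higher and 35 lower, beside 9.29% and 54.0% of all tested genes. The counts were 17 and 15 with equal totals, beside 19.0% and 25.8% of all tested genes. They were 19 and 14 with median-ratio rescaling, beside 22.8% and 21.7%, and 22 and 12 with the factors removed, beside 25.7% and 18.0%. With the filter of 10 FPKM 1 was higher, beside 6.74% of all tested genes. Without single libraries 2 to 9 were higher (2 without KO 1 or KO 3, 3 without WT 2 or WT 3, 9 without KO 2). Of all tested genes 6.39% (without KO 3) to 11.3% (without KO 2) were higher in these fits.

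Replicate numbers are shared between the genotypes. The correlations of same-numbered libraries were 0.141, −0.0988 and 0.0379, and those of the other pairs ran from −0.243 to 0.172. So few values cannot show whether the numbers pair libraries, and the main fit took no pairing. With the replicate number as a block 7540 genes were called, against 7619 without it, and no call of a member changed; of the genes named above Dhx9 and Ripk1 were no longer called. Without read counts, values under 1 FPKM, such as those of Ifih1 and Eif2ak2, have no counting error to set beside them.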
